A study of Mus musculus with 42 samples.

Results

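The response of the carotid intima to low flow was examined in mice that lacked Rbfox2 in their endothelium. The comparison held 5 of the 42 samples of the series, which were 3 low-flow and 2 high-flow pools of intimal RNA collected 7 days after surgery from Rbfox2 EC-KO mice, and its members were chosen by flow, time and genotype alone. EC-KO mice carried the Cdh5(PAC)-CreERT2 transgene, which drives a tamoxifen-inducible Cre from an endothelial promoter, with Rbfox2 lox/lox and the Rosa26-mTmG reporter, and were of C57 background. Partial ligation of the left carotid artery gave the low-flow vessel, and the contralateral artery of ligated mice gave the high-flow vessel. Both groups thus shared the deletion and the surgery, but the low-flow and high-flow pools were not all of the same mice. Littermate controls with Rosa26-mTmG and Rbfox2 lox/lox but no Cre formed 3 low-flow and 2 high-flow pools at the same time point, and untreated C57BL/6J pools collected 48 h after ligation formed 3 of each flow. EC-KO and control mice were males and females 2 to 7 months of age and the untreated mice were males 6 to 7 weeks of age. Each pool combined 3 to 5 arterial flushes, and the p-values therefore measure the spread between pools. Libraries are named here by the numbers in their column names, which are 1, 4 and 5 at low flow and 4 and 5 at high flow in both genotypes.

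Laminar flow at physiological rates keeps the endothelium of large arteries quiescent and maintains the transcription factors KLF2 and KLF4, which promote nitric oxide production and restrain inflammatory genes. When flow falls and becomes disturbed, the endothelium expresses adhesion molecules and chemokines, monocytes and other leukocytes enter the intima, and the vessel wall is remodelled. RBFOX2 is an RNA-binding protein that recognises GCAUG in pre-mRNA and regulates alternative splicing. The counts used here are per gene and do not resolve exons, so splicing itself was not measured.

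The 5 EC-KO libraries held 12321796 to 18633538 counts and the 5 control libraries 10318685 to 16579136. Values for single genes are given as FPKM, which is the count per kilobase of effective gene length and per 1000000 counts of the library. The endothelial marker Pecam1 was high in every library, at 1220 to 2337 FPKM in the EC-KO libraries, whereas thyroid markers summed to at most 0.00017% of the counts. Several libraries stood apart from their groups. Control low-flow library 1 correlated more closely with EC-KO low-flow library 1 (r = 0.967 on the log2 scale over 13352 genes) and with the high-flow control libraries 4 and 5 (r = 0.940 and 0.911) than with the control low-flow libraries 4 and 5 (r = 0.851 and 0.870). EC-KO low-flow library 1 correlated with EC-KO high-flow libraries 4 and 5 (r = 0.9184 and 0.9285) about as closely as with EC-KO low-flow libraries 4 and 5 (r = 0.918 and 0.9391). Both libraries numbered 1 came from a sequencing run of their own, EC-KO low-flow library 4 and control low-flow library 5 from a later repeat run and the other 6 from 1 run. The libraries numbered 1 alone held Y-linked RNA, with Ddx3y at 25.9 FPKM in the EC-KO and 17.7 FPKM in the control library against at most 0.0141 FPKM elsewhere. The libraries numbered 1 thus held RNA of male mice that the high-flow pools lacked, and they differed from those pools in animals and sequencing run. EC-KO high-flow library 4 held the most RNA of T and NK cell markers, 0.103% of its counts against 0.00263% to 0.0134% in the other EC-KO libraries.

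Rbfox2, which lies at chr15:76909420-77137483 on the minus strand (mm9), was measured first as a check of the genotype labels. In EC-KO it stood at 1.09, 0.169 and 0.622 FPKM in low-flow libraries 1, 4 and 5 and at 0.791 and 1.05 FPKM in high-flow libraries 4 and 5. In controls it stood at 3.27, 5.73 and 2.74 FPKM at low flow and at 3.66 and 3.84 FPKM at high flow. Every EC-KO library was below every control library, and the mean was 0.745 ± 0.374 FPKM (SD, n = 5) against 3.85 ± 1.13 FPKM (SD, n = 5), a residue of 19.3% (exact permutation test over libraries, two-sided, p = 0.00794). This test pooled low-flow and high-flow libraries, which may come from the same mice, so the 5 libraries of a genotype may not be independent. In the fit across all genes the log2 difference was -2.61 at low flow (edgeR, adjusted p = 0.692) and -2.06 at high flow (adjusted p = 1), so that it did not pass the threshold after adjustment. Between low and high flow within EC-KO, Rbfox2 differed by -0.58 ± 0.74 on the log2 scale (SE, adjusted p = 0.687). Of its relatives, Rbfox1 was above 0 only in high-flow library 4, at 0.0282 FPKM, and Rbfox3 had no count in any EC-KO library.

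**Figure D1:**
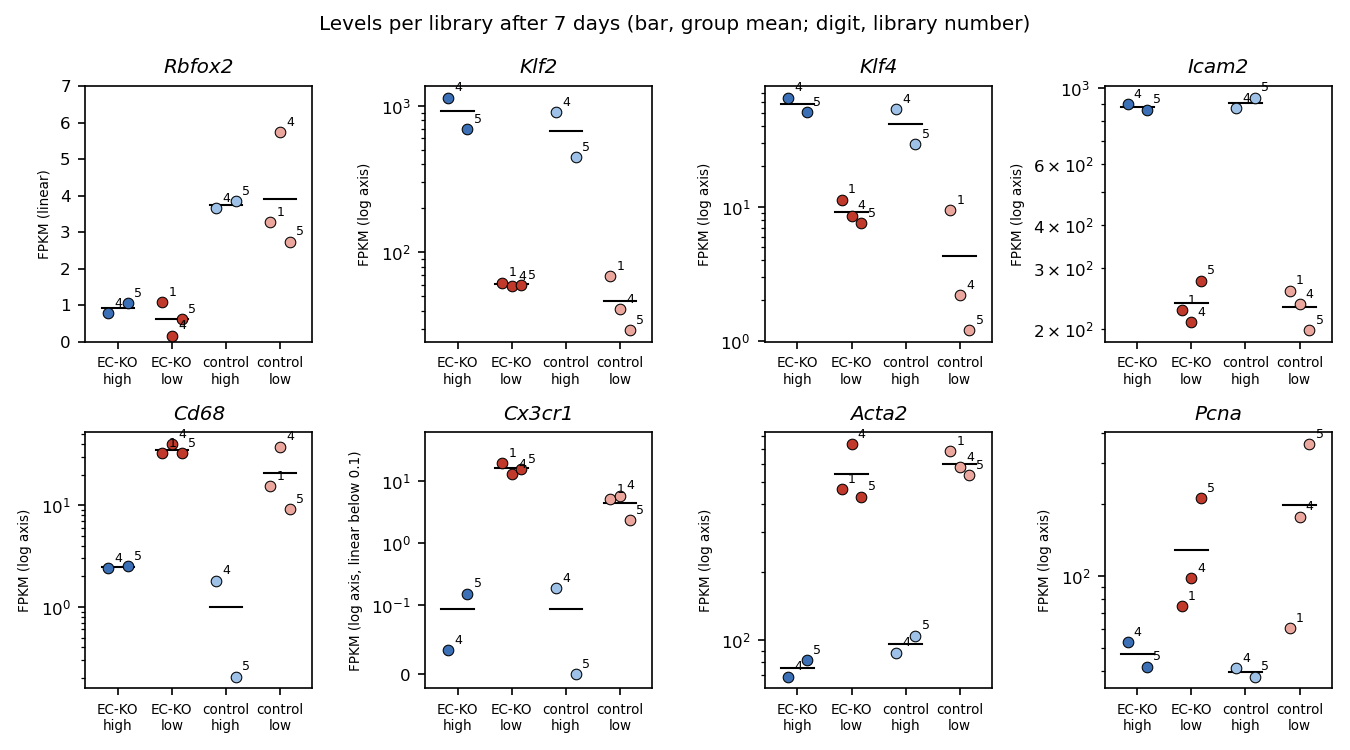
Levels of 8 genes in FPKM (y axes, linear for Rbfox2, otherwise logarithmic and for Cx3cr1 linear below 0.1) in the 10 libraries at 7 days, grouped by genotype and flow, where each point is a library with its number and the bar is the group mean. Rbfox2 separates the genotypes, Klf2, Klf4 and Icam2 are lower and Cd68, Cx3cr1 and Acta2 higher in every low-flow library of both genotypes, and Pcna in control low-flow library 1 (60.3 FPKM) lies near the high-flow libraries.

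Between low and high flow without endothelial Rbfox2, the genes lowered most included Klf2, Klk10 and Eln and the genes raised most included Mmp12, Mmp13, Itgax and Cx3cr1. Of 12971 genes tested, 858 passed an adjusted p of 0.05 (edgeR quasi-likelihood test, 6.61%). Low flow raised 400 of them (3.08%) and lowered 458 (3.53%). The low-flow and high-flow libraries did not overlap in FPKM for any of the 858 genes, whereas 44.3% of all genes tested showed such separation, 21.6% with low flow above and 22.7% with low flow below. A log2 fold-change of at least 1 was reached by 726 of these genes (5.6%), with 355 higher (2.74%) and 371 lower (2.86%). With 1 library left in the high-flow group, whose spread was then taken from the low-flow libraries, the count was 238 without high-flow library 4 (1.78%, with 1.04% higher and 0.731% lower) and 204 without high-flow library 5. It was 470 and 421 without low-flow libraries 4 and 5, and 1034 without low-flow library 1 (8.13%, with 3.74% higher and 4.39% lower). Within 1 sequencing run, which left low-flow library 5 against both high-flow libraries, 1048 genes passed (7.95%, with 4.02% higher and 3.93% lower), and the lone low-flow library was assumed to vary like the others. In a fit that drew its spread from all 4 groups of the experiment (the 4-group fit) 146 genes passed (1.09%, with 0.352% higher and 0.741% lower). None of the 858 genes changed sign under any of these settings. As their groups did not overlap, this was largely fixed in advance and is no separate evidence.

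The transcription factors Klf2 and Klf4, which mark high flow, were both lower at low flow. Klf2, at chr8:74842932-74845555 on the plus strand (mm9), stood at 62.1, 58.9 and 59.9 FPKM in low-flow libraries 1, 4 and 5 and at 1138 and 696 FPKM in high-flow libraries 4 and 5. The low-flow libraries were nearly equal and the means differed 15.2-fold, a log2 fold-change of -3.92 ± 0.23 (SE, adjusted p = 0.000872). Klf4, its close relative, stood at 11.3, 8.59 and 7.58 FPKM against 65.2 and 50.7 FPKM, a log2 fold-change of -2.66 ± 0.22 (adjusted p = 0.00189). Both calls held with each library left out in turn. In the 4-group fit the adjusted p was 0.00548 for Klf2 and 0.0942 for Klf4. The 300-base promoters of these genes, from 250 bases before to 50 bases after the start site (RefSeq, GRCm38.p6), are shown because Klf2 and Klf4 fell together. Capitals mark matches to the MEF2 consensus, searched as CTA and TAG with any 4 bases between them, which reads the same on both strands. It occurs once in the Klf2 promoter, beginning 118 bases upstream of the start site, does not occur in this window of Klf4, and is held by 3.69% of the 32851 promoters of the same length.
Klf2 (chr8:72318812-72319111, plus strand): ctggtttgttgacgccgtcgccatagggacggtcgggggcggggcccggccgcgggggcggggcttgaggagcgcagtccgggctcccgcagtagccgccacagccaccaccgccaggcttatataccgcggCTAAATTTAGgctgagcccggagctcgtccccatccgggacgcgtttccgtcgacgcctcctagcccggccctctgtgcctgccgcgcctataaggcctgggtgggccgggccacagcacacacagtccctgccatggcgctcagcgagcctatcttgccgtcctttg
Klf4 (chr4:55532426-55532725, minus strand): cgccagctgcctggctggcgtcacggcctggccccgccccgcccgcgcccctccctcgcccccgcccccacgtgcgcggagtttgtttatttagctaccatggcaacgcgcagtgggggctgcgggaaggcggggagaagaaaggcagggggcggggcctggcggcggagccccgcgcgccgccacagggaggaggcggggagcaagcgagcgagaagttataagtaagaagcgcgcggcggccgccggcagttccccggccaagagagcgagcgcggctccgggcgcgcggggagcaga

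Of the flow-responsive endothelial genes, a list of 28 measured genes with known regulation by shear stress, 26 were tested and 8 rose and 5 fell, with a median log2 fold-change of 0.63 against 0.01 over all genes tested. Over all genes 3.08% rose and 3.53% fell. With single libraries left out 2 to 6 of the list rose, 2 of them without high-flow library 4, and 4 to 6 fell, and in the 4-group fit 3 rose and 2 fell. Besides Klf2 and Klf4, the genes that fell were Nos3, Ptgs1 and Aqp1. Nos3, the endothelial nitric oxide synthase, stood at 199, 149 and 195 FPKM at low flow and 548 and 450 FPKM at high flow (log2 fold-change -1.47 ± 0.18, adjusted p = 0.00578), and Aqp1, a water channel, changed by -1.77 ± 0.22 (adjusted p = 0.00579). Nos3, Ptgs1, Edn1, Aqp1 and Thbs1 were chosen for description after their values were seen. The genes that rose included Angpt2, an antagonist of the TIE2 receptor, at 19.1, 63.2 and 28.5 FPKM against 0.679 and 0.883 FPKM (log2 fold-change 5.56 ± 0.65, adjusted p = 0.00488), with a log2 fold-change of 4.88 without low-flow library 4. Ctgf, a matricellular target of YAP and TGF-beta signalling, was at 975, 976 and 664 FPKM against 21.0 and 56.0 FPKM (4.48 ± 0.51, adjusted p = 0.00441), and its value was 5.42 without high-flow library 5. The vasoconstrictor gene Edn1 was at 209, 686 and 186 FPKM against 29.1 and 26.8 FPKM (3.71 ± 0.65, adjusted p = 0.0194), and Ptgs2, the inducible cyclooxygenase, at 41.4, 225 and 57.3 FPKM against 6.29 and 5.02 FPKM (4.28 ± 0.82, adjusted p = 0.026). For both of the latter genes low-flow library 4 was far above the others, and neither passed without high-flow library 4 or 5. Without low-flow library 4 Edn1 was at 2.79 and Ptgs2 at 3.10. Cav1, the most abundant member, which builds caveolae, was at 3772 to 4384 FPKM at low and 1674 to 2465 FPKM at high flow and did not pass (0.93 ± 0.22, adjusted p = 0.0518, or 0.0365 without high-flow library 5).

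Of 18 arterial identity and Notch genes tested, 6 fell and none rose, at a median log2 fold-change of -0.80, and 2 to 5 of them fell with single libraries left out and 2 in the 4-group fit. Dll1, a Notch ligand, stood at 15, 12.7 and 8.65 FPKM at low flow against 122 and 67.9 FPKM (log2 fold-change -2.96 ± 0.31, adjusted p = 0.00361), and its call held with each library left out. Hes1, a Notch target, changed by -1.72 ± 0.24 (adjusted p = 0.00846), the receptor Notch1 by -1.30 ± 0.17 (adjusted p = 0.00617) and the arterial connexin gene Gja5 by -1.26 ± 0.28 (adjusted p = 0.0412). Hes1 and Notch1 passed in 4 of 5 fits that left a library out and Gja5 in 1. Gja4, another arterial connexin gene and the most abundant member, stood at 292 to 503 FPKM at low flow and at 181 and 217 FPKM at high flow and did not pass (0.91 ± 0.26, adjusted p = 0.083). Of 26 genes of the TGF-beta and BMP pathway, 5 fell and 1 rose, with 2 to 6 lower when single libraries were left out and 2 lower in the 4-group fit. Id1, a BMP target, was at 47.2, 31.4 and 32.0 FPKM against 350 and 170 FPKM (-2.81 ± 0.32, adjusted p = 0.00439), and Ltbp4, which tethers latent TGF-beta in elastic fibres, changed by -2.04 ± 0.23 (adjusted p = 0.00439). Smad7, an inhibitor of the pathway, changed by -1.75 ± 0.23 (adjusted p = 0.00672), and Id3, the most abundant member, by -0.93 ± 0.19 (adjusted p = 0.034), whereas Smad1, a BMP effector, was 0.99 ± 0.19 higher (adjusted p = 0.0278). Id1 and Ltbp4 passed in all 5 fits that left a library out, Smad7 in 4, Smad1 in 2 and Id3 in 1.

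Of 15 endothelial markers, 6 fell and 1 rose (2 and 1 in the 4-group fit), and their summed counts made up 0.939% to 1.10% of the low-flow and 1.86% to 1.92% of the high-flow EC-KO libraries. In bulk intimal RNA fewer endothelial cells and less RNA per cell cannot be told apart. Icam2, an adhesion molecule of resting endothelium, was at 226, 209 and 276 FPKM against 899 and 865 FPKM (log2 fold-change -1.91 ± 0.18, adjusted p = 0.00247). Pecam1, the most abundant marker, changed by -0.84 ± 0.16 (adjusted p = 0.0258, or 0.285 in the 4-group fit), Tek, the TIE2 receptor gene, by -1.08 ± 0.19 (adjusted p = 0.02) and Vwf, the carrier of factor VIII, by -1.34 ± 0.27 (adjusted p = 0.0306, or 0.382 in the 4-group fit). Emcn, a sialomucin of veins and capillaries, went the other way, at 162, 176 and 163 FPKM against 63.3 in both high-flow libraries (1.39 ± 0.18, adjusted p = 0.006). Of these only Icam2 passed with each library left out, and a single marker fell and none rose without high-flow library 4. Among 9 leukocyte adhesion molecules tested, 3 rose and 3 fell, but with single libraries left out at most 1 rose and 1 to 3 fell, and in the 4-group fit none rose and 1 fell. Vcam1, which binds integrins of monocytes and lymphocytes, was at 1539, 1004 and 1140 FPKM against 394 and 629 FPKM (1.24 ± 0.28, adjusted p = 0.0454), and Sele, the endothelial selectin, at 40.9, 119 and 34.8 FPKM against 3.29 and 10.6 FPKM (3.21 ± 0.75, adjusted p = 0.0476). Each passed in only 1 of the 5 fits that left a library out, and Sele ranged from 2.39 without low-flow library 4 to 4.36 without high-flow library 5. Jam2, a junctional molecule, was lower by a log2 fold-change of -1.33 ± 0.21 (adjusted p = 0.0125) and did not pass without low-flow library 5 or high-flow library 5.

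Klk10, a serine protease of the kallikrein family, stood at 38.2, 9.59 and 16.9 FPKM in low-flow libraries 1, 4 and 5 against 497 and 464 FPKM, a 22.3-fold difference of the means (log2 fold-change -4.49 ± 0.51, adjusted p = 0.00441). Prrt4, a transmembrane protein, was at 3.74, 4.96 and 2.84 FPKM against 93.3 and 71.0 FPKM (-4.41 ± 0.28, adjusted p = 0.00108). Serpina1d and Serpina1e, members of the alpha1-antitrypsin cluster whose near-identical copies may share reads, changed by -7.58 ± 0.93 (adjusted p = 0.00563) and -3.77 ± 0.46 (adjusted p = 0.00563). Serpina1d had 4, 0 and 0 counts at low flow and 260 and 333 counts at high flow, and its fitted value was -11.04 without low-flow library 1 and -7.73 to -7.07 with any other library left out. Eln, the gene of elastin, was at 34.9, 27.7 and 61.2 FPKM against 399 and 394 FPKM (-3.28 ± 0.31, adjusted p = 0.00267), and Fndc1 at 8.52, 7.43 and 6.90 FPKM against 62.6 and 96.8 FPKM (-3.40 ± 0.25, adjusted p = 0.00124). Vipr1, a receptor for vasoactive intestinal peptide, changed by -4.80 ± 1.02 (adjusted p = 0.0362), Syt7 by -4.09 ± 0.52 (adjusted p = 0.00631), Nxnl2 by -3.77 ± 0.56 (adjusted p = 0.0105), the gluconeogenic gene Pck1 by -3.58 ± 0.69 (adjusted p = 0.0275) and the MAP kinase phosphatase gene Dusp8 by -3.13 ± 0.42 (adjusted p = 0.0077). These 11 genes with Klf2 are the 12 lowered most, and 8 of the 12 passed with each library left out. The exceptions were Vipr1, which did not pass without high-flow library 4 or 5 or low-flow library 4, Pck1, which passed only without low-flow library 1, and Nxnl2 and Dusp8, which did not pass without high-flow library 4. In the 4-group fit 9 of the 12 passed, all but Vipr1, Nxnl2 and Pck1. Without low-flow library 1 Vipr1 was at -6.54, Klk10 at -5.21, Pck1 at -4.84 and Nxnl2 at -4.38.

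Among the genes raised most were Cx3cr1 of the macrophage markers and Itgax of the dendritic cell markers. Mmp13, a collagenase at chr9:7272514-7283333 on the plus strand (mm9), had 603, 462 and 228 counts in low-flow libraries 1, 4 and 5, which is 12.8, 14.8 and 6.49 FPKM, and no count in either high-flow library, so that its mean level was at least 161-fold higher than a floor of 3 counts per library (adjusted p = 0.00269). The uncharacterised gene 4833422F24Rik was likewise without counts at high flow and at least 84.6-fold higher than that floor (adjusted p = 0.00262). Mmp12, the macrophage elastase gene, was at 26.3, 23.1 and 18.3 FPKM with 0 and 4 counts at high flow (log2 fold-change 9.27 ± 0.63, adjusted p = 0.00108). Itgax, encoding CD11c, stood at 8.78, 11.2 and 5.85 FPKM against 0.0326 and 0.043 FPKM (7.74 ± 0.56, adjusted p = 0.00124). Cx3cr1, the fractalkine receptor of monocytes and macrophages, stood at 19.4, 12.8 and 15.4 FPKM against 0.0353 and 0.155 FPKM (7.29 ± 0.54, adjusted p = 0.00124), and Atp6v0d2, a proton pump subunit of macrophages and osteoclasts, at 73.4, 111 and 72.2 FPKM against 1.07 and 0.637 FPKM (6.66 ± 0.39, adjusted p = 0.000872). The other members of the 12 raised most were Apol7c, with 1 count at high flow in all (adjusted p = 0.0049), the inhibitory receptor genes Pilra (7.83 ± 0.52, adjusted p = 0.00108) and Cd72 (6.38 ± 0.46, adjusted p = 0.00124), and Tifab (5.96 ± 0.42, adjusted p = 0.00124), Crym (5.95 ± 0.74, adjusted p = 0.00578) and Ms4a6c (5.92 ± 0.77, adjusted p = 0.00662). All 12 passed with each library left out in turn, and 10 of the 12 passed in the 4-group fit, 4833422F24Rik and Ms4a6c being the exceptions. The fitted values of the genes with few counts at high flow moved with the high-flow library used. Without library 4 and without library 5 they were 8.35 and 13.23 for Mmp12, 6.60 and 8.75 for Cx3cr1, 5.26 and 7.35 for Crym and 8.16 and 5.06 for Ms4a6c.

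The promoters of Mmp13 and Itgax are shown because both genes were near or at 0 in every high-flow library and hold a match to TGANTCA, which contains the AP-1 consensus. The pattern was searched on both strands, and the match, in capitals, begins 35 bases upstream of the start site in Mmp13 and 56 bases upstream in Itgax. It occurs in 3 of 10 promoters of the 9 matched genes raised most, in 1 of 10 of those lowered most, and in 7.81% of all 32851 promoters. The sequences are RefSeq's in GRCm38.p6.
Mmp13 (chr9:7272264-7272563, plus strand): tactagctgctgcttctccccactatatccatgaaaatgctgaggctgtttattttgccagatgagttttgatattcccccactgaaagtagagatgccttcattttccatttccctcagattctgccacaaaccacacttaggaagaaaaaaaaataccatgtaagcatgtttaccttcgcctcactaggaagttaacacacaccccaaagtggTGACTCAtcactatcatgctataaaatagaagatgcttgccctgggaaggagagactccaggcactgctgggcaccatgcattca
Itgax (chr7:128129300-128129599, plus strand): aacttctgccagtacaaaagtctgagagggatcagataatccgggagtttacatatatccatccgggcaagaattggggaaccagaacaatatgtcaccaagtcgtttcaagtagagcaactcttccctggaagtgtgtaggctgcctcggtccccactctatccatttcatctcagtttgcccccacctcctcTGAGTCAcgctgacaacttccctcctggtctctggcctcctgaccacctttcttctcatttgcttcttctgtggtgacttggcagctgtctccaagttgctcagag

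**Figure D2:**
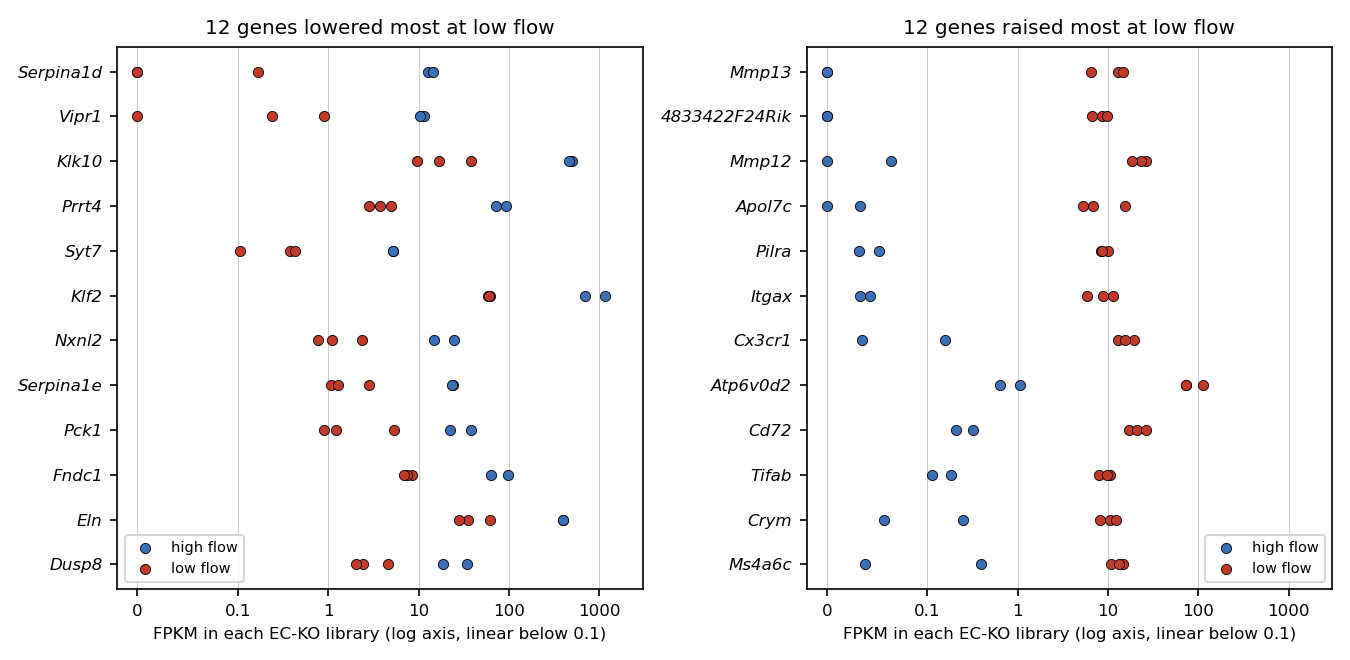
FPKM (x axis, logarithmic above 0.1 and linear below) of the 12 genes lowered most and the 12 raised most among genes that passed the test, did not overlap and reached 5 FPKM in the higher group; each point is 1 EC-KO library. For Mmp13 and 4833422F24Rik both high-flow libraries lie at 0, and Klf2 has its 3 low-flow libraries at 58.9 to 62.1 FPKM.

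Of 14 macrophage markers, 9 rose and none fell (background 3.08% higher), at a median log2 fold-change of 4.26, or 4.21 with Trem2, which had no count at high flow, set to its bound. Their summed counts were 0.0738%, 0.0987% and 0.0639% of low-flow libraries 1, 4 and 5 and 0.00646% and 0.00488% of high-flow libraries 4 and 5. Cd68, a lysosomal glycoprotein of macrophages, stood at 32.7, 39.8 and 32.3 FPKM against 2.42 and 2.51 FPKM (log2 fold-change 3.82 ± 0.33, adjusted p = 0.00195). Emr1, which encodes F4/80, stood at 13.6, 23.9 and 12.9 FPKM against 0.367 and 0.269 FPKM (5.72 ± 0.46, adjusted p = 0.00177). Csf1r, the receptor for macrophage colony-stimulating factor, changed by 4.53 ± 0.33 (adjusted p = 0.00124) and Fcgr1, an Fc receptor, by 4.79 ± 0.82 (adjusted p = 0.0178), which did not pass without high-flow library 4 or 5. With single libraries left out 7 to 10 of these markers rose. In the 4-group fit 1 of 14 rose, which was Cx3cr1, and the adjusted p was 0.0612 for Cd68, 0.0689 for Emr1, 0.077 for Csf1r, 0.0787 for C1qb and 0.115 for Fcgr1. The complement list gave 6 of 18 genes higher and none lower in every such fit with the exception of 1 gene lower without low-flow library 1, and 1 gene higher in the 4-group fit. C1qb, the most abundant macrophage marker and a subunit of the C1q complex, was at 179, 223 and 152 FPKM against 10.2 and 7.22 FPKM (4.41 ± 0.29, adjusted p = 0.00108). C1qc (4.29 ± 0.42, adjusted p = 0.0028) and the anaphylatoxin receptor genes C3ar1 (4.85 ± 0.46, adjusted p = 0.00262) and C5ar1 (4.72 ± 0.57, adjusted p = 0.00531) rose with it, at 4.97 for C1qc without high-flow library 4 and 5.47 for C3ar1 without high-flow library 5, whereas Clu, the most abundant member and an inhibitor of complement, was at 3862 to 6171 FPKM at low and 5516 to 5706 FPKM at high flow (-0.17 ± 0.23, adjusted p = 0.707).

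Of 12 MHC class II genes tested, 8 rose and none fell, at a median of 1.75. H2-Eb1 stood at 200, 227 and 284 FPKM against 32.9 and 73.8 FPKM (log2 fold-change 2.12 ± 0.38, adjusted p = 0.02), its transactivator gene Ciita changed by 1.87 ± 0.42 (adjusted p = 0.0422), and Ctss, a protease that trims the invariant chain, was at 74.7, 180 and 124 FPKM against 5.64 and 3.72 FPKM (4.76 ± 0.46, adjusted p = 0.0028). March1, a ligase that removes MHC class II from the surface, changed by 4.79 ± 0.89 (adjusted p = 0.0233). Cd74, the invariant chain gene and the most abundant member, was at 1565 to 2117 FPKM at low flow against 241 and 783 FPKM and did not pass (1.75 ± 0.48, adjusted p = 0.0737), with 1.12 without high-flow library 4 and 2.91 without high-flow library 5 (adjusted p = 0.013). H2-Eb1 passed in 2 of 5 fits that left a library out, at 2.88 without high-flow library 5, and Ciita and March1 in 1, March1 being at 5.70 without high-flow library 5. The count of 8 depended on single libraries and was 2 without high-flow library 4 or low-flow library 4 or 5, 5 without high-flow library 5 and 7 without low-flow library 1. In the 4-group fit none of 13 passed. None of 15 MHC class I presentation genes passed, with H2-D1 at 2785 to 3162 FPKM at low and 3094 and 3178 FPKM at high flow. Of 18 chemokines tested 5 rose, 2 to 6 with single libraries left out and 3 in the 4-group fit. Cxcl12, which attracts progenitors and leukocytes through CXCR4, stood at 232, 176 and 383 FPKM against 22.5 and 39.4 FPKM (3.06 ± 0.41, adjusted p = 0.00779), and Cx3cl1, the ligand of CX3CR1, at 127, 108 and 113 FPKM against 39.2 and 34.7 FPKM (1.64 ± 0.18, adjusted p = 0.00403). Both passed with each library left out, whereas Ccl6 (2.89 ± 0.61, adjusted p = 0.0353) and Ccl9 (3.25 ± 0.74, adjusted p = 0.0454), chemokines of myeloid cells, passed only without low-flow library 1. Without low-flow library 4 and without high-flow library 5 they were 2.29 and 3.55 for Ccl6 and 2.51 and 4.35 for Ccl9, which was at 2.63 without high-flow library 4.

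Markers of other leukocytes gave few calls. Ptprc, the pan-leukocyte antigen CD45, stood at 20.9, 28.0 and 21.7 FPKM at low flow and at 26.5 and 4.06 FPKM in high-flow libraries 4 and 5, so that the groups overlapped (log2 fold-change 0.65 ± 0.62, adjusted p = 0.576). Without high-flow library 4 its adjusted p was 0.0209. None of the 11 T and NK cell markers tested passed, at a median of -2.95. Cd8b1, the most abundant of them, was at 20.6, 6.57 and 2.55 FPKM at low flow and at 188 and 21.0 FPKM at high flow (-3.35 ± 0.98, adjusted p = 0.088). These values rest on high-flow library 4, without which Cd8b1 changed by -1.14 (adjusted p = 0.685) and no marker passed. In the other fits that left a library out 3 markers were lower without high-flow library 5, 1 without low-flow library 1 and none without low-flow library 4 or 5. Of 9 dendritic cell markers 1 rose, which was Itgax (3 rose without low-flow library 1), while Zbtb46, which endothelium also expresses, was at 9.61 to 18.3 FPKM against 16.1 and 13.7 FPKM (-0.08 ± 0.31, adjusted p = 0.912). None of 5 neutrophil, 3 B cell and 7 platelet markers passed. S100a9, the most abundant neutrophil marker, was at 1.05 to 2.12 FPKM at low flow and 6.25 and 0.646 FPKM at high flow (adjusted p = 0.66), Cd79b at 0.342 to 2.39 FPKM and 2.70 and 0.528 FPKM (adjusted p = 0.924), and Pf4, a platelet chemokine, at 4.54 to 16.3 FPKM and 6.12 and 7.52 FPKM (0.78 ± 0.70, adjusted p = 0.55).

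**Figure D3:**
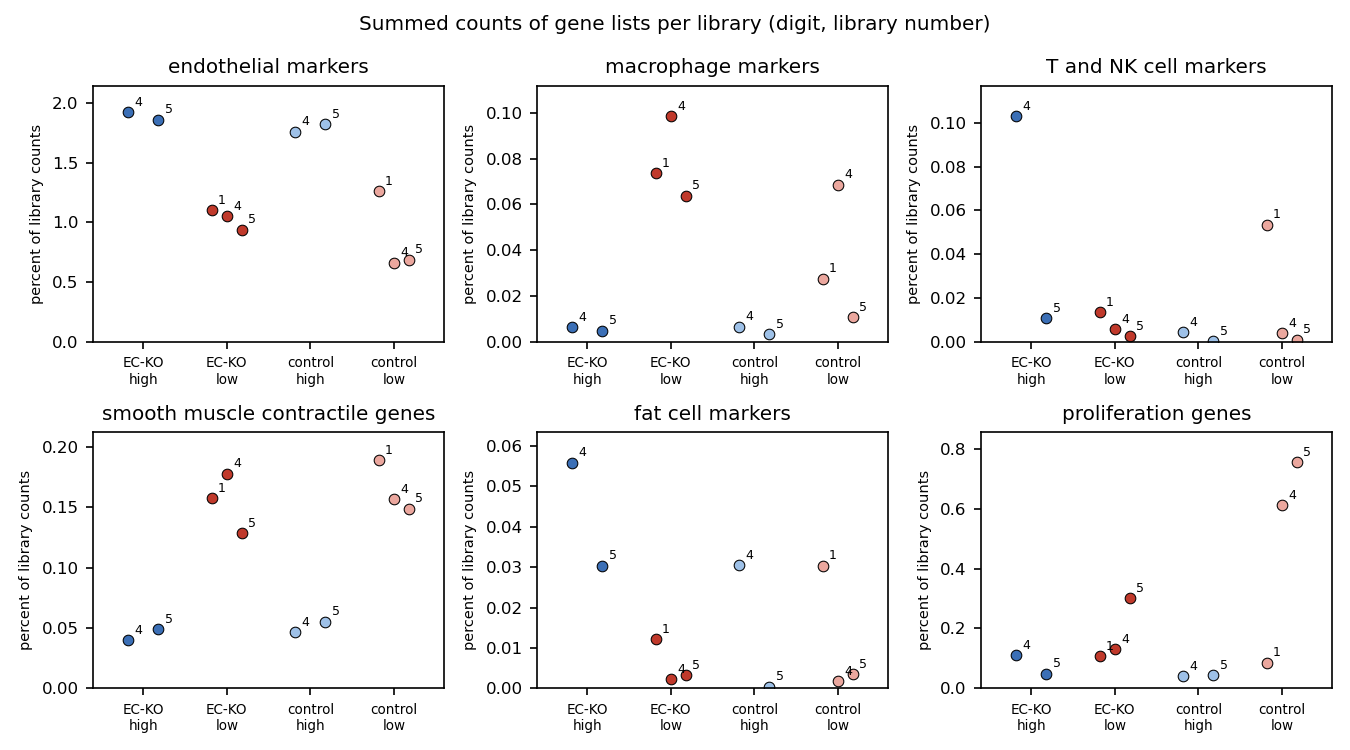
Summed counts of 6 gene lists as a percentage of all counts (y axes from 0) in each of the 10 libraries at 7 days, grouped by genotype and flow, each point a library with its number. In EC-KO, the sums of macrophage and of smooth muscle genes are higher and that of endothelial markers lower in every low-flow library, T and NK cell RNA peaks in high-flow library 4 (0.103%), and control low-flow library 1 lies near the high-flow libraries for proliferation genes (0.0862%).

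Among the cells of the vessel wall, 2 of 12 smooth muscle contractile genes rose and none fell in every fit that left a library out, and 1 rose in the 4-group fit. Acta2, smooth muscle actin, stood at 467, 736 and 432 FPKM against 69.1 and 81.6 FPKM (log2 fold-change 2.85 ± 0.32, adjusted p = 0.00439) and Tagln, an actin-binding protein, at 355, 247 and 154 FPKM against 28.5 and 34.3 FPKM (3.00 ± 0.38, adjusted p = 0.00631). The median log2 fold-change of the list was 0.25, with 7 of 12 members above 0. The contractile markers Myh11 (0.452 to 2.73 FPKM at low and 1.5 to 3.41 FPKM at high flow) and Cnn1 (2.89 to 9.32 FPKM and 5.53 to 6.72 FPKM), chosen for description after their values were seen, overlapped between the groups. Fibroblast markers were divided, with 2 of 12 higher and 3 lower, or 1 higher and 1 lower in the 4-group fit. Lum, a proteoglycan of collagen fibrils, stood at 87.6, 353 and 120 FPKM against 4.19 and 7.06 FPKM (5.05 ± 0.75, adjusted p = 0.0106) and Dcn, its relative, at 372, 1054 and 305 FPKM against 33.8 and 67.4 FPKM (3.51 ± 0.67, adjusted p = 0.0255). Neither passed without high-flow library 4 or 5, and without low-flow library 4, the highest in both, Lum was at 4.16 and Dcn at 2.70. Dcn was at 4.15 without high-flow library 5. Mfap5, a microfibril protein, changed by -2.20 ± 0.28 (adjusted p = 0.00626), Pi16 by -1.45 ± 0.33 (adjusted p = 0.0451) and Ly6a, which arterial endothelium also expresses, by -1.14 ± 0.17 (adjusted p = 0.0103). Pi16 did not pass without high-flow library 4 or 5 or low-flow library 4 (adjusted p of 0.111 to 0.175) or in the 4-group fit (adjusted p = 0.12), and Ly6a not without high-flow library 5. Of 9 fat cell markers 2 were lower, namely Fabp4, a fatty acid carrier of adipocytes and endothelium, at 90.5, 17.5 and 27.5 FPKM against 451 and 314 FPKM (-3.08 ± 0.60, adjusted p = 0.0282), and Cidec, a lipid droplet protein (-2.64 ± 0.51, adjusted p = 0.0278). Summed fat cell markers made up 0.00225% to 0.0121% of the low-flow and 0.0304% to 0.0559% of the high-flow libraries, 6 members fell without low-flow library 1 and none did with any other library left out. Fabp4 was at -4.10 without low-flow library 1. None of 6 red cell and 6 Schwann cell markers passed, although Hba-a2 ranged from 37.2 to 1373 FPKM at low flow (-1.25 ± 1.28, adjusted p = 0.602) and 4 red cell markers were lower without low-flow library 1, with Hba-a2 at -4.58. None of 2 skeletal muscle markers passed. The part of these cell types in the other results was not tested.

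Extracellular matrix genes changed in both directions, with 5 of 28 higher and 4 lower outside the collagens, 2 to 6 higher and 1 to 4 lower when single libraries were left out, and 1 higher and 1 lower in the 4-group fit. Tgfbi, a TGF-beta-induced adhesion protein, stood at 30.3, 58.2 and 44.5 FPKM against 0.924 and 2.15 FPKM (log2 fold-change 4.82 ± 0.50, adjusted p = 0.00361). Thbs1, thrombospondin 1, was at 445, 497 and 821 FPKM against 67.7 and 149 FPKM (2.41 ± 0.43, adjusted p = 0.0197). Spp1, osteopontin, varied widely among the low-flow libraries, with 4.49, 93.8 and 20.2 FPKM against 0.300 and 0.352 FPKM (6.91 ± 1.49, adjusted p = 0.0376). Ltbp2 (4.35 ± 0.69, adjusted p = 0.013) and the basement membrane gene Nid2 (3.49 ± 0.76, adjusted p = 0.0388) also rose. With single libraries left out Tgfbi passed in all 5 fits, Ltbp2 in 4, Thbs1 and Spp1 in 2 and Nid2 in 1, and without low-flow library 4 Spp1 was at 5.17 and Ltbp2 at 3.59. Without high-flow library 5 Tgfbi was at 5.62 and Thbs1 at 3.15, and Ltbp2 was at 5.11 without high-flow library 4. Mgp, an inhibitor of calcification and the most abundant of these genes, stood at 842 to 1273 FPKM and 2151 and 1583 FPKM (-0.77 ± 0.23, adjusted p = 0.0966). Fn1, fibronectin, stood at 45, 100 and 92.3 FPKM at low flow and 57.2 and 49.8 FPKM at high flow, where low-flow library 1 was below both high-flow libraries (0.57 ± 0.34, adjusted p = 0.357). Of 16 collagens tested 1 rose, which was Col8a1, at 84.7, 100 and 111 FPKM against 24.6 and 25.1 FPKM (1.98 ± 0.20, adjusted p = 0.00306), and Col18a1, the most abundant, did not pass (0.63 ± 0.29, adjusted p = 0.232). Of 25 matrix proteases and inhibitors, 3 rose, namely Mmp12, Mmp13 and Ctss, while Timp2, the most abundant, was at 551 to 775 FPKM and 909 and 994 FPKM (-0.46 ± 0.21, adjusted p = 0.244). Without low-flow library 1, 7 members of this list rose and 1 fell, and in the 4-group fit 2 rose. Among 11 endothelial-to-mesenchymal genes Acta2 and Tagln rose, Twist1 fell (-0.90 ± 0.20, adjusted p = 0.0445, not passed with any library left out) and Vim, the most abundant, did not pass (0.92 ± 0.22, adjusted p = 0.0509, or 0.0251 without low-flow library 1).

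Of 20 immediate early genes 3 rose and 1 fell, and none passed in the 4-group fit. With single libraries left out 1 to 3 rose and at most 1 fell. Fosl1, an AP-1 subunit, stood at 15.6, 11.1 and 7.67 FPKM against 0.473 and 0.115 FPKM (log2 fold-change 5.29 ± 0.72, adjusted p = 0.00779), Fosb at 4.17, 17.7 and 1.17 FPKM against 0.0174 and 0.092 FPKM (7.05 ± 1.48, adjusted p = 0.0351) and Myc at 88.9, 250 and 71.4 FPKM against 29 and 14 FPKM (2.70 ± 0.63, adjusted p = 0.0469), whereas Jund was lower (-1.21 ± 0.22, adjusted p = 0.0233). Fosl1 passed with each library left out (6.63 without high-flow library 4 and 4.58 without high-flow library 5), Fosb in 3 of 5 such fits (5.49 without low-flow library 4 to 8.67 without high-flow library 5, and not without either high-flow library), Myc in 2 (1.89 without low-flow library 4) and Jund in 1. Fos was at 776 FPKM in low-flow library 4 and at 2.97 to 26.5 FPKM in the other 4 libraries (4.29 ± 1.86, adjusted p = 0.214), and its log2 fold-change was 0.62 without that library. Of 20 respiratory chain subunits 5 fell, among them Cox6c (-1.70 ± 0.23, adjusted p = 0.00729), Cox7a2 (-1.46 ± 0.27, adjusted p = 0.023), Ndufa4 (-1.44 ± 0.24, adjusted p = 0.0153) and Cox4i1 (-1.04 ± 0.22, adjusted p = 0.034), and Atp5b, the most abundant, did not pass (0.10 ± 0.18, adjusted p = 0.797). None of the 20 passed in the 4-group fit, nor did any of the 16 circadian clock genes described next. Without high-flow library 4 or 5 none of the 20 passed. Of 16 circadian clock genes 3 fell, namely Dbp (-1.56 ± 0.32, adjusted p = 0.0318), Nr1d1 (-1.35 ± 0.28, adjusted p = 0.0322) and Per2 (-1.13 ± 0.24, adjusted p = 0.0376), each of which passed with only 1 of the 5 libraries left out. The stress genes Ddit3 (-1.44 ± 0.32, adjusted p = 0.0411) and Sdf2l1 (1.48 ± 0.30, adjusted p = 0.0327) passed in opposite directions but with single libraries left out in 0 and 1 of 5 fits, and neither passed in the 4-group fit, while the chaperone gene Hspa5, the most abundant of the list, did not pass (0.85 ± 0.21, adjusted p = 0.0576), 1 of 11 fatty acid uptake genes was lower, and 1 of 22 cholesterol synthesis genes rose (4.55%, against 3.08% of all genes). This was Idi1 (1.26 ± 0.28, adjusted p = 0.0412), which passed in 1 of 5 fits with a library left out. No member of the glycolysis (17 tested), interferon-stimulated (22 tested) or other splicing regulator (16 tested) lists passed, at medians of 0.27, 0.73 and 0.18. Gapdh, Gbp2 and Mbnl1, their most abundant members, had adjusted p of 0.27, 0.11 and 0.764.

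**Figure D4:**
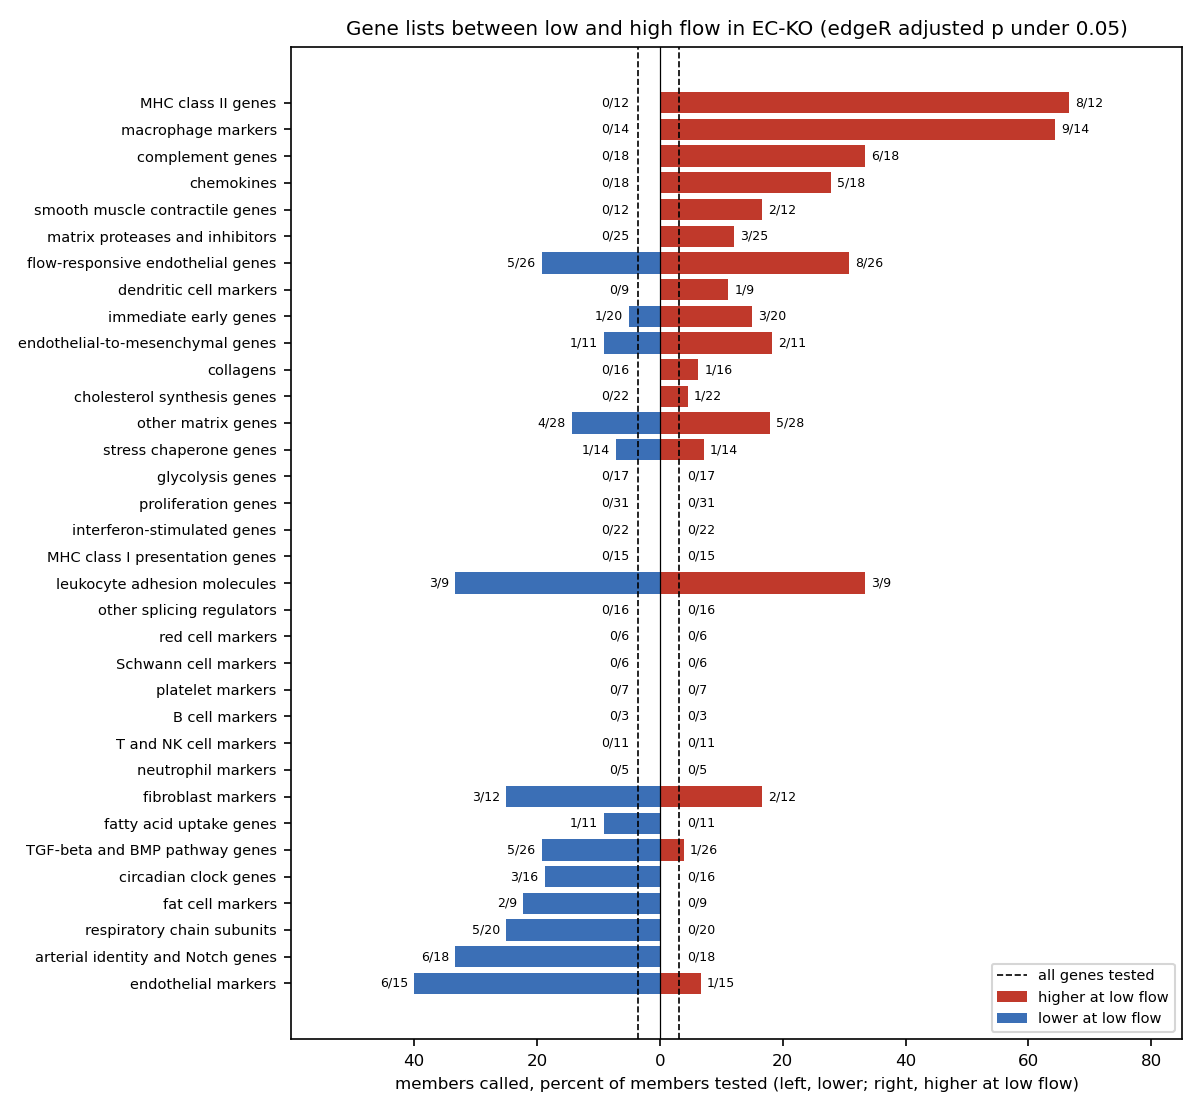
Percentage of the tested members of each gene list that were higher (right) or lower (left) at low flow in EC-KO, with the counts beside the bars and the percentage over all genes tested as dashed lines (3.08% higher and 3.53% lower). MHC class II genes (8 of 12) and macrophage markers (9 of 14) reach furthest to the right, endothelial markers (6 of 15) furthest to the left.

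To set the response beside that of mice with endothelial Rbfox2, the same comparison was made in littermate controls, which shared no library with it. With all 5 control libraries 3 of 12795 genes passed (0.0234%), all lower at low flow, and 2240 had an unadjusted p below 0.05. Without control low-flow library 1, 3341 of 12322 genes passed (27.1%), 1907 higher (15.5%) and 1434 lower (11.6%). Over the 833 genes that passed in EC-KO and were tested in this reduced set, 603 passed in controls too, and the log2 fold-changes of 98.2% had the same sign (Pearson r = 0.91 across genes, which are not independent replicates). With library 1 included these values were 98.9% and r = 0.92 over 851 genes, of which 3 passed in controls. Over all genes tested in both, 73.6% of 12201 genes had the same sign without library 1 (r = 0.66) and 73.8% of 12588 genes with it (r = 0.64). Klf2 changed by -3.95 and Klf4 by -3.36 in controls, or by -4.30 and -4.62 without library 1. Cd68 changed by 4.23, or 4.44 without library 1, Acta2 by 2.54 or 2.49, and Icam2 by -2.07 or -2.10.

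Whether the flow response itself differed between genotypes was tested by the interaction of flow and genotype. None of 13352 genes passed (edgeR, 0 called), with 538 at an unadjusted p below 0.05. DESeq2 called 19 genes, all with a lower response in EC-KO, among them Cdca7, Nusap1, Cnr2, Rnf157 and Fasn, and Ccnb2, Ube2c and Cenpf of the proliferation list. Without control low-flow library 1 edgeR called 7, which were Kpna2, Kif23, Spag5 and D2Ertd750e with a lower and Cp, Parm1 and Efemp1 with a higher response in EC-KO. In that fit 2350 of 13251 genes were at an unadjusted p below 0.05. Without both libraries numbered 1 edgeR called 0, with 2036 of 13159 genes at an unadjusted p below 0.05. The 6 genes of smallest p with a lower response in EC-KO were Cnr2, Cdca7, Rnf157, Fasn, Nusap1 and Gimap3, and the 6 with a higher response were Csgalnact1, Hdac9, Atoh8, Fkbp7, Fzd7 and Itih5, all at an adjusted p of 0.986. Cdca7, a MYC target of dividing cells, stood at 10.8, 12.1 and 20.9 FPKM at low and 34.9 and 6.65 FPKM at high flow in EC-KO, and at 17.6, 48.6 and 53.5 FPKM and 3.25 and 1.48 FPKM in controls, a difference of the log2 fold-changes of -4.50. Within EC-KO Cdca7 changed by -0.49, or by 1.07 without high-flow library 4. Nusap1, a spindle protein, differed by -4.51 between genotypes and Fasn, fatty acid synthase, by -2.10. Hdac9, a histone deacetylase, was at 1.79, 4.10 and 3.17 FPKM against 0.251 and 0.221 FPKM in EC-KO and at 1.14, 1.10 and 1.93 FPKM against 0.651 and 0.685 FPKM in controls (difference 2.68). Lum differed by 2.94 (unadjusted p = 0.00692) and Ptprc by -3.19 (unadjusted p = 0.0129).

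Of the 38 lists, proliferation genes held the most genes with an unadjusted p below 0.05 for the difference between genotypes. In EC-KO none of the 31 tested passed, at a median log2 fold-change of 1.00, whereas in controls without low-flow library 1 all 31 rose, at a median of 5.36, and in untreated arteries at 48 h all 31 rose, at a median of 4.72. With all control libraries none of the 31 passed, at a median of 4.81. The difference between genotypes had an unadjusted p below 0.05 for 21 of the 31 genes, against 538 of all 13352, and an adjusted p below 0.05 for none (edgeR), at a median of -3.76. With DESeq2 Ccnb2, Ube2c and Cenpf of this list passed, with differences of -5.21, -5.10 and -4.60 (adjusted p = 0.0106, 0.0382 and 0.0492). Summed, these genes made up 0.108%, 0.130% and 0.302% of EC-KO low-flow libraries 1, 4 and 5 and 0.111% and 0.0488% of high-flow libraries 4 and 5. In controls the shares were 0.0862%, 0.613% and 0.756% at low flow and 0.0397% and 0.0440% at high flow. Control low-flow library 1 was thus below every EC-KO low-flow library, and EC-KO high-flow library 4, which also held the most T and NK cell RNA, was above EC-KO low-flow library 1. Pcna, the most abundant member and a DNA polymerase clamp, stood at 74.7, 97.9 and 212 FPKM at low and 52.7 and 41.6 FPKM at high flow in EC-KO (1.43 ± 0.42, adjusted p = 0.0901). Mki67, chosen after its values were seen, stood at 2.57, 2.42 and 10.7 FPKM against 4.36 and 1.35 FPKM in EC-KO (0.87 ± 0.73, adjusted p = 0.518) and at 1.77, 16.8 and 28.7 FPKM against 0.951 and 0.653 FPKM in controls. Top2a, a topoisomerase of dividing cells, chosen in the same way, was at 9.10, 12 and 31.6 FPKM against 12.6 and 3.06 FPKM in EC-KO (1.17 ± 0.67, adjusted p = 0.341). Without high-flow library 4 Mki67 was at 1.88 and Top2a at 2.45 in EC-KO, and without low-flow library 5 they were at -0.17 and 0.46. The part of the T cell RNA and of control library 1 in the difference was not tested. Without low-flow library 1, 2 of the 31 genes rose in EC-KO, 6 did with DESeq2 and 8 within 1 run.

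**Figure D5:**
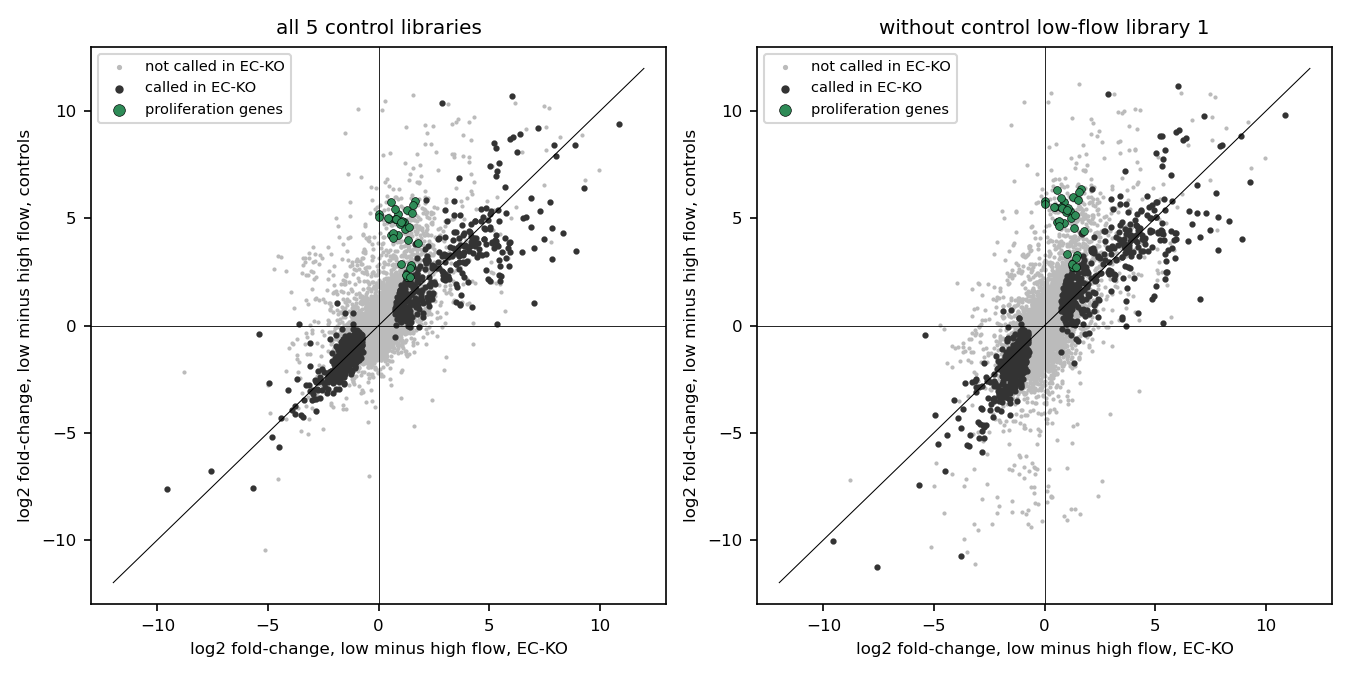
Response to low flow as log2 fold-change, in controls (y axis) against EC-KO (x axis), with all 5 control libraries (left) and without control low-flow library 1 (right). Each point is a gene, genes called in EC-KO are dark and proliferation genes green, and the line marks equal values; the 31 proliferation genes lie above the line, at medians of 5.36 in controls without that library and 1.00 in EC-KO.

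The untreated pools at 48 h, which differed from the EC-KO pools in strain designation, age, sex, read length and time, gave 5195 of 11236 genes past the threshold (46.2%, with 23.6% higher and 22.6% lower). Of 815 genes that passed in EC-KO at 7 days and were tested there, 612 passed at 48 h and 89.4% had the same sign (r = 0.88 across genes), against 66.6% of all 11119 genes tested in both (r = 0.65). Klf2 changed by -4.28 and Klf4 by -4.21 at 48 h, Angpt2 by 7.73 and Cd68 by 4.75. C1qb rose at 48 h too (2.28), while Lum changed by -0.58 (adjusted p = 0.383) and Dcn by -1.55 (adjusted p = 0.0541) against 5.05 and 3.51 in EC-KO at 7 days, or 4.16 and 2.70 there without low-flow library 4. Differences between the time points were not tested.

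Fkbp7, a prolyl isomerase of the endoplasmic reticulum at chr2:76501101-76511142 on the minus strand (mm9), separated the genotypes at both flows. It stood at 12.2, 8.18 and 8.41 FPKM at low and 6.21 and 6.27 FPKM at high flow in EC-KO, and at 58.8, 33.1 and 35.0 FPKM and 80.4 and 74.1 FPKM in controls. It was the single gene that passed between genotypes at high flow (log2 difference -3.67 ± 0.38, edgeR, adjusted p = 0.0352), and at low flow it did not pass (-2.10 ± 0.29, adjusted p = 0.444). DESeq2 called 27 genes between genotypes at high and 11 at low flow, and without control low-flow library 1 edgeR called 1476 at low flow.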

How the data were processed

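Intimal RNA from pooled carotid flushes was amplified with a kit that does not mark strand and sequenced as 150 bp pairs at 7 days. Per the submitters' notes the authors aligned reads with STAR 2.5.1b and quantified mm9 genes with RSEM 1.2.15; the deposited table holds expected counts and, as another value, an effective length per gene. Of 204 value columns 188 were not used. Where a library was sequenced again, the repeat column was taken, which the comparison is defined by. The 1 entry without a gene name (at most 0.0637% of counts) was left out. Expected counts were rounded and tested with edgeR 4.0.16 (filterByExpr, TMM, quasi-likelihood, Benjamini-Hochberg, adjusted p of 0.05) in R 4.3.3, low against high flow within a genotype, and over 4 groups for the interaction. Genes without counts in a group were compared with a floor of 3 counts per library. DESeq2 1.42.0, RLE scaling, no filter, a replicate block, 1 run alone, single libraries left out and both libraries numbered 1 left out were alternatives. Named genes were Rbfox1, Rbfox2, Rbfox3, Klf2, Klf4, Fn1, Ptprc, Cd68 and Emr1, the 12 raised and 12 lowered most (called, not overlapping, at least 5 FPKM in every library of the higher group), the 4 called members with the largest change and the most abundant member of each of 38 lists, and the 6 genes with the smallest interaction p in each direction. Members and lists were chosen with earlier results of these data known. The tests were checked on simulated data.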

Additional observations from a re-analysis of the deposited data

Results flagged for a closer look

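For 4 genes the EC-KO libraries moved one way and the control libraries the other, with no overlap between low and high flow in either genotype. They are among the 12 genes named for the smallest interaction p, a choice that favours opposite movement, and 102 of 12955 genes tested showed the same pattern (0.787%). Csgalnact1, a chondroitin sulphate synthesis enzyme, was higher at low flow in EC-KO (23.7, 28.2 and 16.4 against 16.3 and 13.1 FPKM) and lower in controls (14.7, 11.2 and 10.5 against 18.7 and 22.0 FPKM), a difference of the log2 fold-changes of 1.46. Fzd7, a WNT receptor, differed in the same way by 2.12 and Fkbp7 by 1.57. Fasn was lower at low flow in EC-KO (6.16, 3.00 and 8.16 against 16.1 and 16.1 FPKM) and higher in controls (13, 15 and 16.3 against 10.9 and 7.58 FPKM), a difference of -2.10. None of the 4 passed the interaction test after adjustment over 13352 genes (edgeR), and Fasn passed with DESeq2 (adjusted p = 0.0492).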

How the results depend on the processing

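With 2 high-flow pools the count of genes called in EC-KO moved with the libraries used. Of 858, the count became 204 to 1034 with each library left out, 2085 with DESeq2, 146 with the spread of all 4 groups and 760 with a replicate block. In controls the 3 genes became 0 to 3341 with each library left out, 1276 with DESeq2, 4930 within 1 run (chosen after seeing the data), 320 with the spread of all 4 groups and 3817 with the replicate block, which leaves library 1 without a partner. For the interaction DESeq2 gave 19 genes, each library left out 0 to 7, both libraries numbered 1 left out 0 (chosen after seeing the data) and the replicate block 0. The numbers 4 and 5 are not stated to pair pools, and their deviations correlated at 0.008 to 0.187. Rbfox2 at low flow passed with DESeq2 (-2.62, adjusted p = 0.0106) and without control library 1 (-2.73, adjusted p = 0.0261), within a range of -3.28 to -2.18 over the libraries left out. The first-run columns of the libraries sequenced again were planned as an alternative and were not run, since the table would then hold more columns than the groups have samples.

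Of 137 named genes 98 were called, 30 of these in every setting. None of the 98 had a reversed sign, which groups without overlap largely fixed in advance. Genes that were not called and turned in sign with single libraries left out were Ptprc (-0.13 to 2.48), Zbtb46 (-0.34 to 0.14), S100a9 (-1.88 to 1.25), Cd79b (-1.01 to 1.27), Mbnl1 (-0.14 to 0.48), Atp5b (-0.04 to 0.24), Cnr2 (-0.48 to 1.27), Cdca7 (-1.23 to 1.07), Rnf157 (-2.25 to 1.21), Nusap1 (-0.25 to 1.05), Gimap3 (-0.89 to 1.71) and Mki67 (-0.17 to 1.88). Within 1 run Pf4 became -0.64, Cnr2 -0.11 and Gimap3 0.58, and with the replicate block Cdca7 was 0.05 and Gimap3 0.27. The cause was not tested.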
